A study of Drosophila melanogaster with 4 samples.

Results

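The circadian clock genes of Drosophila were described here as 8 genes chosen by symbol: Clk and cyc, per and tim, vri and Pdp1, cwo, and cry. They were 8 of the 14029 genes in the deposited values and held 38 of the 30090 transcripts. RNA had been sequenced from whole third-instar larvae, all labelled male, in 2 libraries per genotype, which the study describes as biological replicates and which each pooled many larvae. The Inr-a duplication (genotype label pcf11/+, with 3 copies of Inr-a, also named Pcf11) came from fathers of the stock w[a]; Pcf11Dup/CyO GFP and Canton S mothers, with GFP-negative larvae picked, and the wild type (+/+, with 2 copies) was the Canton S stock itself. The genotypes therefore differ in the stock of the father as well as in the duplication. The hour of collection and the light schedule are not given in the sources used here. The deposited values are means per genotype in CPM, counts scaled to a common library total,, from which the whole counts of both libraries were recovered. Within a genotype, A denotes the deeper library and B the shallower, since the study's replicate numbers could not be attached to them, and values of a genotype are given for A and then for B.

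The clock of the fly is a feedback loop of transcription. CLK and CYC, a pair of bHLH-PAS proteins, bind E-boxes and activate per and tim, whose proteins gather, enter the nucleus and block CLK and CYC again. In a further loop, vri and Pdp1 are activated by CLK and CYC, and their proteins repress and activate Clk, while cwo encodes an E-box repressor. CRY is the blue-light photoreceptor that marks TIM for degradation. In adult heads the mRNAs of per, tim, vri, Pdp1 and cwo peak in the evening or early night, those of Clk and cry peak around dawn, and cyc mRNA does not cycle. In larvae the cells that run the clock include a few lateral brain neurons. Several of these genes are also used outside of the clock, as vri is in embryonic patterning and Pdp1 in muscle and growth.

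The recovered totals were 15423445 and 14084653 counts in the Inr-a duplication and 12558720 and 11304266 counts in wild type. The targeted gene Pcf11 had 1285 and 1338 counts in the Inr-a duplication against 758 and 656 counts in wild type, a ratio of mean CPM of 1.51, with an adjusted p of 0.179 from limma. Larvae are mixtures of cells, and in such bulk samples fewer cells of a type cannot be told apart from less RNA per cell. Of the marker lists, neurons had 0 of 7 genes past the threshold, with a summed level of 179 and 231 CPM in the Inr-a duplication against 171 and 194 CPM in wild type. Most of that sum was Syt1, with 149 and 168 CPM against 134 and 164 CPM. The median log2 fold change of the 7 was 0.54, beside 0.021 over all genes, with a range from -0.40 (brp) to 1.11 (Gad1). These marker values were not centred on transcript length, with which log2 fold changes shifted over all genes. Both values of the Inr-a duplication lay above those of wild type for 3 of the 7 and below for 0, beside 27% and 26.7% of all genes. Glia had 0 of 3 and photoreceptors 0 of 4 tested genes past the threshold. Rh5 and Rh6, opsins of the larval eye, were detected in every library, and ninaE, an adult opsin, had counts in 1 of the 4 only. For Rh5 and Rh6 both values of the Inr-a duplication lay below those of wild type, as for 26.7% of all genes. Their log2 fold changes were -0.50 and -0.60, while norpA and trp overlapped between genotypes, at 0.44 and 0.091. Of all genes tested, 1.73% were higher and 0.503% lower at this threshold, an adjusted p below 0.05 from limma. Hemocyte markers stood apart, with 4 of 5 genes (Hml, NimC1, PPO1 and PPO2) higher and 223 and 372 CPM in the Inr-a duplication against 97.5 and 45.0 CPM in wild type. So did muscle markers, with 2 of 4 tested genes (Act57B and Mhc) higher and 2460 and 4106 CPM against 1647 and 1192 CPM in wild type. Midgut markers had 2 of 4 tested genes higher (Amy-d and betaTry) and testis markers 0 of 5, while those of fat body and salivary gland glue were too abundant for counts to be recovered. The Hsp70 genes, near-identical copies among which reads can be split, had 4 of 5 tested genes lower and 1 higher, with 33.1 and 44.0 CPM in the Inr-a duplication against 1190 and 530 CPM in wild type. The part of these differences in the values of the clock genes was not tested.

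None of the 8 clock genes differed between the Inr-a duplication and wild type past an adjusted p of 0.05. The test was limma on log2 of TMM-scaled CPM plus 0.5, fitted over 11539 genes, all 8 clock genes among them. Of all genes tested, 2.24% were called, 1.73% higher and 0.503% lower in the Inr-a duplication. Before adjustment, at p below 0.05, tim and cwo were higher and none was lower, so that 2 of 8 stood beside 12.2% higher and 8.62% lower of all genes. With limma-voom 0 clock genes passed the adjusted threshold, beside 1.51% higher and 0.433% lower of all genes, and tim and cwo passed the unadjusted one, beside 11.9% and 8.65%. With library size in place of TMM 0 passed the adjusted threshold, beside 0.511% higher and 0.147% lower, and tim passed the unadjusted one, beside 9.32% and 10.1%. The genotypes did not overlap for 4 genes. For tim, vri and cwo both values of the Inr-a duplication were the higher ones, 3 of 8 beside 27% of all genes, and for cry they were the lower ones, 1 of 8 beside 26.7%. Scaled by library size the same genes were separate, beside 22.9% and 30.3% of all genes. With 2 libraries on each side, the smallest two-sided p of an exact permutation test is 0.333.

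The levels spanned a wide range. Per kilobase, with each isoform's CPM divided by its own length, cyc averaged 15.9 ± 2.73 CPM in the Inr-a duplication and 18.6 ± 3.80 CPM in wild type (SD, n = 2 each), and vri averaged 22.3 ± 1.06 CPM in the Inr-a duplication and 18.3 ± 2.97 CPM in wild type. Next came cry with 5.41 ± 0.032 CPM per kilobase in the Inr-a duplication and 7.13 ± 0.13 in wild type, and cwo with 3.27 ± 0.92 in the Inr-a duplication and 2.02 ± 0.64 in wild type. Clk, Pdp1, per and tim lay at or below 2.003 CPM per kilobase in every library. In the order of the wild type levels (cyc, vri, cry, cwo, Clk, Pdp1, per, tim) the ranges over the 4 libraries overlapped between cyc and vri and between each neighbouring pair from Clk to tim. They did not overlap from vri to cry, from cry to cwo, or from cwo to Clk.

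**Figure D1:**
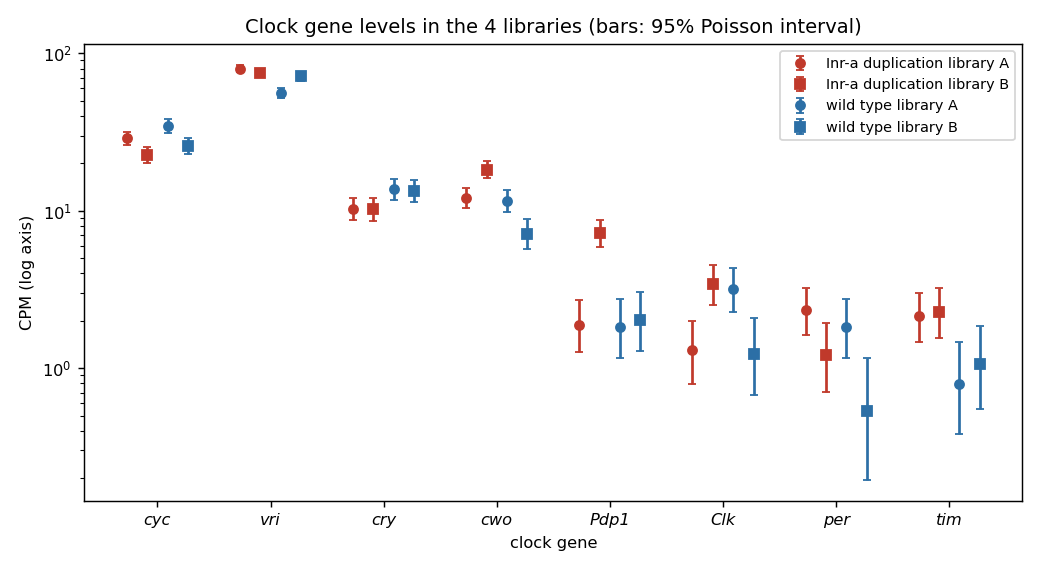
Level of each clock gene in CPM (log axis) in the 2 Inr-a duplication libraries (red) and the 2 wild type libraries (blue), with circles for library A and squares for library B. Bars are exact 95% Poisson intervals and cover counting error only. The red and blue points do not overlap for tim, vri, cwo and cry, and per, Clk and Pdp1 differ most between libraries of the same genotype.

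The genes of the activators showed no shift larger than their spread. Clk (FBgn0023076, reverse strand of chromosome 3L from 7763233 to 7775603 in BDGP6.54) had 20 and 48 counts in the Inr-a duplication and 40 and 14 counts in wild type. That is 1.30 and 3.41 CPM against 3.19 and 1.24 CPM, so each genotype held a low and a high library. The libraries differed 2.63-fold within the Inr-a duplication and 2.57-fold within wild type, while the means, 2.35 and 2.21 CPM, had a ratio of 1.06. The Poisson intervals of the high and low library did not overlap within either genotype, at 2.51 to 4.52 CPM against 0.792 to 2.003 CPM in the Inr-a duplication, and 2.28 to 4.34 CPM against 0.677 to 2.08 CPM in wild type. The log2 fold change was 0.086 (95% interval -0.79 to 0.96, adjusted p = 0.932 from limma), and it turned to -0.42 when Inr-a duplication library B was left out and to -0.47 when wild type library B was.

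The partner of Clk, cyc (FBgn0023094), lies on the reverse strand of chromosome 3L from 19813770 to 19815938. It had 446 and 319 counts in the Inr-a duplication and 434 and 292 counts in wild type, or 28.9 and 22.6 CPM against 34.6 and 25.8 CPM. In both genotypes library A was the higher, and the groups overlapped. The log2 fold change was -0.19 (95% interval -0.77 to 0.39, adjusted p = 0.728 from limma), and it turned to 0.054 when Inr-a duplication library B was left out and to 0.021 when wild type library A was.

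Of the genes of the repressor complex, tim had the largest log2 fold change of the 8. It lies on the reverse strand of chromosome 2L from 3493986 to 3508119 (FBgn0014396), and it had 33 and 32 counts in the Inr-a duplication against 10 and 12 counts in wild type. These are 2.14 and 2.27 CPM against 0.796 and 1.06 CPM, and the groups did not overlap. Libraries of the same genotype differed 1.06-fold in the Inr-a duplication and 1.33-fold in wild type, while the ratio of the means was 2.37. Counting error alone is wide at this depth, with the lowest Poisson bound in the Inr-a duplication at 1.47 CPM and the highest in wild type at 1.85 CPM. The log2 fold change was 0.95 (SE 0.38, 95% interval 0.16 to 1.74), for which limma gave an adjusted p = 0.168 (0.0210 unadjusted). Leaving out any 1 library gave values between 0.82 and 1.07.

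The other gene of the complex, per (FBgn0003068, forward strand of the X chromosome from 2685580 to 2692780), had 36 and 17 counts in the Inr-a duplication and 23 and 6 counts in wild type. That is 2.33 and 1.21 CPM against 1.83 and 0.531 CPM, so that wild type library A lay between the Inr-a duplication libraries. The ratio of the means was 1.499, and the libraries differed 1.93-fold within the Inr-a duplication and 3.45-fold within wild type. Its log2 fold change was 0.53 (95% interval -0.38 to 1.44, adjusted p = 0.50 from limma). The value moved with each library left out. It was -0.067 without wild type library B and 0.097 without Inr-a duplication library A. Without wild type library A it was 1.12, and without Inr-a duplication library B it was 0.95.

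Among the 1479 genes between 1 and 4 CPM, where tim, per, Clk and Pdp1 all lie, the median standard error was 0.38 on the log2 scale. Of these genes 31 (2.10%) were called, and the smallest log2 fold change among the called ones was 1.43 in size. The values of tim, per, Clk and Pdp1 were all smaller than this. A call also depends on the standard error of each gene, and the smallest difference detectable at this level was not tested.

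The genes of the further loop differed from each other in how steady they were. vri, which encodes a bZIP repressor (FBgn0016076, forward strand of 2L from 5288944 to 5311223), had the highest counts of the 8, with 1233 and 1057 in the Inr-a duplication and 700 and 805 in wild type. These are 79.9 and 75.05 CPM against 55.7 and 71.2 CPM, and the groups did not overlap, although wild type library B lay closer to the Inr-a duplication than to wild type library A. Its log2 fold change was 0.33 (95% interval -0.22 to 0.87, adjusted p = 0.487 from limma), for a ratio of means of 1.22. Leaving out a library gave values between 0.16 (without wild type library A) and 0.49, with 0.19 when Inr-a duplication library A was left out.

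Pdp1, a bZIP activator (FBgn0016694, reverse strand of 3L from 7811458 to 7867369), had 29 and 102 counts in the Inr-a duplication and 23 and 23 counts in wild type. In CPM these are 1.88 and 7.24 against 1.83 and 2.03, so library B of the Inr-a duplication stood apart from the other libraries, and library A lay between the wild type libraries. The ratio of means was 2.36, with a 3.85-fold difference within the Inr-a duplication. The log2 fold change was 0.84 (95% interval -0.020 to 1.70), for which limma gave an adjusted p = 0.249 (0.0552 unadjusted). Without Inr-a duplication library B it was 0.051, and leaving out library A gave 1.62 (adjusted p = 0.0157 from limma), in a fit that called 4.93% of all genes higher and 4.37% lower.

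The E-box repressor gene cwo (FBgn0259938, forward strand of 3R from 10388258 to 10400752) had 187 and 257 counts in the Inr-a duplication and 145 and 81 counts in wild type, or 12.1 and 18.2 CPM against 11.5 and 7.17 CPM. The groups did not overlap, but Inr-a duplication library A and wild type library A differed less than the libraries within either genotype did. The ratio of means was 1.62 and the log2 fold change 0.71 (SE 0.31, 95% interval 0.076 to 1.34), for which limma gave an adjusted p = 0.194 (0.0298 unadjusted). With a library left out it lay between 0.37 and 1.04.

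The photoreceptor gene cry (FBgn0025680, forward strand of 3R from 19212154 to 19215442) was the steadiest of the 8 within genotypes. It had 159 and 144 counts in the Inr-a duplication and 172 and 151 counts in wild type, or 10.3 and 10.2 CPM against 13.7 and 13.4 CPM. Libraries of the same genotype differed by 1.01-fold and 1.03-fold, and the ratio of the means was 0.759, with both Inr-a duplication libraries below both wild type libraries. The highest Poisson bound in the Inr-a duplication was 12.04 CPM and the lowest in wild type 11.3 CPM, so the counting intervals still met. The log2 fold change was -0.35 (95% interval -0.94 to 0.24, adjusted p = 0.491 from limma), and between -0.45 and -0.28 with a library left out.

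**Figure D2:**
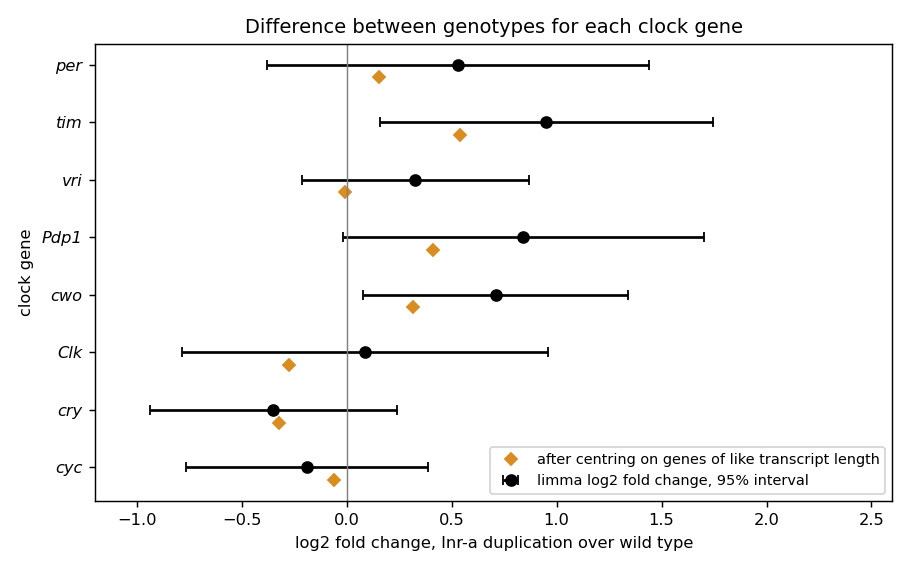
Log2 fold change of the Inr-a duplication over wild type for each clock gene (black points, with bars for the 95% interval from limma), and the same value after centring on genes of like transcript length (orange diamonds). The intervals of tim and cwo lie above 0 before adjustment, and the diamonds of vri and Clk, centred by the longest transcript, lie at -0.0071 (0.037 with lengths weighted by counts) and -0.28.

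The signs of the 8 genes went with transcript length as they did in the whole transcriptome. The 6 clock genes with a positive log2 fold change (Clk, per, tim, vri, Pdp1 and cwo) have a longest transcript of 4068 to 6855 bases, and the ones with a negative value, cyc and cry, have 1625 and 1896 bases. Among all 1405 tested genes from 4000 to below 7000 bases the median log2 fold change was 0.40 and 82.1% lay above 0, against -0.13 and 38.7% among 3902 genes from 1000 to below 2000 bases. These lengths are those of the longest listed transcript, which for Clk and Pdp1 had no counts and for vri few. Weighted by counts, the mean lengths of Clk and vri were 3765 and 3504 bases, below that class, and those of per, tim, Pdp1 and cwo were 4051 to 5289 bases. In the longer class 53.0% of all genes had both values of the Inr-a duplication above those of wild type, beside 3 of the 6 clock genes in it. The trend differed between libraries rather than between genotypes alone. Relative to the mean of the 4 libraries, the median gene of the longer class stood at 0.12 and 0.30 on the log2 scale in the Inr-a duplication, and at -0.0445 and -0.34 in wild type.

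After the running median of genes of like transcript length was taken out of each library, the log2 fold changes of tim, Pdp1, cwo and per were 0.54, 0.41, 0.32 and 0.16. That of vri was -0.0071, against 0.33 before, and that of Clk was -0.28, against 0.086 before. For the short genes cry and cyc they were -0.32 and -0.060. None of the 8 passed an unadjusted p of 0.05 in this fit, and the lowest was 0.167, for tim. With lengths weighted by counts, an alternative added after the data were seen, vri turned to 0.037 and Clk was at -0.25, and the other 6 kept their sign. By the longest transcript, the targeted gene Pcf11, with 6321 bases, had 0.18 in place of 0.62.

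**Figure D3:**
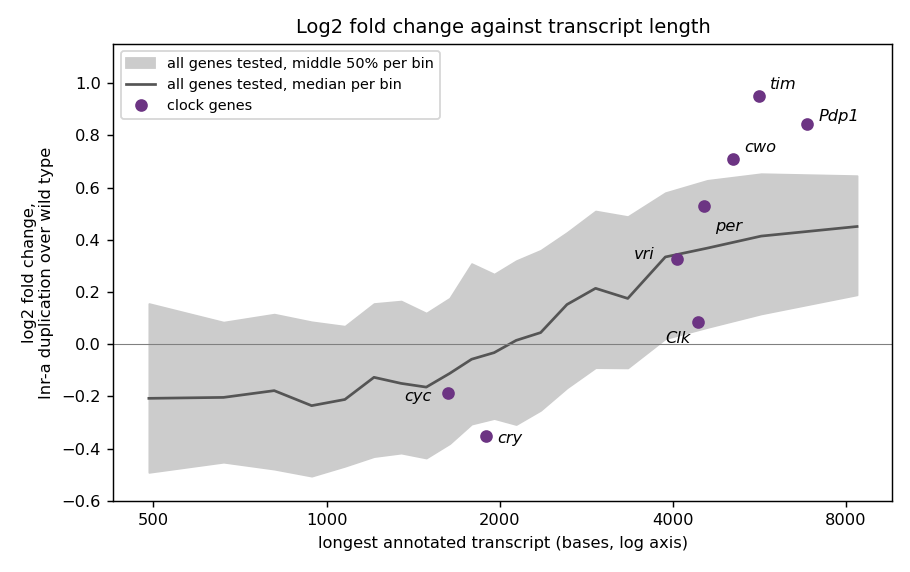
Log2 fold change of the Inr-a duplication over wild type against the length of the longest listed transcript (log axis). The line is the median of all genes tested in 20 bins of equal gene number, the grey band runs from the lower to the upper quartile, and purple points are the clock genes. tim, Pdp1 and cwo lie above the band, cry lies below it, and per, vri, Clk and cyc lie within it.

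Grouped by the phase known from adult heads, the 5 evening genes (per, tim, vri, Pdp1 and cwo) all had a higher mean in the Inr-a duplication, their median log2 fold change was 0.71, and 0 of 5 were called. The genotypes overlapped for per and Pdp1. The higher mean of Pdp1 came from Inr-a duplication library B, at 7.24 CPM, against 1.88 CPM in library A. Over all genes tested the median was 0.021, and 51.5% lay above 0. The dawn genes were split, with Clk at 0.086 and cry at -0.35. After centring on length, 4 of the 5 evening genes had a positive value, with vri at -0.0071 (0.037 with lengths weighted by counts), and both dawn genes a negative one. All 5 evening genes are also longer than cyc and cry, but the dawn gene Clk is long as well, at 4422 bases by the longest transcript. Weighted by counts, Clk at 3765 bases was longer than the evening gene vri at 3504 bases. Whether phase or transcript length goes with the signs of these genes was not tested.

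A ratio of 2 genes within a library does not depend on how libraries are scaled. The log2 ratio of tim to Clk, both long genes, was 0.72 and -0.58 in the Inr-a duplication, against -2 and -0.22 in wild type. The genotypes overlapped, with means of 0.069 ± 0.92 in the Inr-a duplication and -1.11 ± 1.26 in wild type (SD, n = 2 each). The ratio of vri to Clk gave 5.95 and 4.46 in the Inr-a duplication and 4.13 and 5.85 in wild type, again with overlap, and its difference of 0.22 was smaller than the SD within either genotype. The ratio of per to cry gave -2.14 and -3.08 in the Inr-a duplication and -2.90 and -4.65 in wild type, and these overlapped as well.

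Another 3 ratios were chosen after the values were seen and carry no test. That of tim to per overlapped, with -0.13 and 0.91 in the Inr-a duplication and -1.202 and 1 in wild type. The genotypes were separate for the ratios of vri and cwo to cry. The log2 ratio of vri to cry was 2.96 and 2.88 in the Inr-a duplication and 2.02 and 2.41 in wild type. That of cwo to cry was 0.23 and 0.84 in the Inr-a duplication and -0.25 and -0.90 in wild type. In both of these pairs a long transcript is set against a short one.

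**Figure D4:**
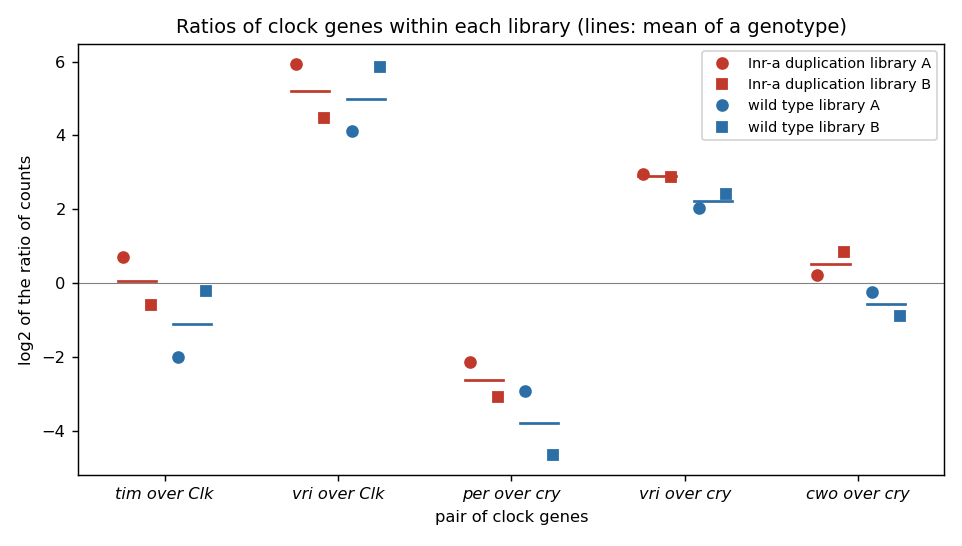
Log2 ratio of the counts of 2 clock genes within each library, for Inr-a duplication (red) and wild type (blue), with circles for library A, squares for library B and a line for the mean of each genotype. Points of both genotypes overlap for tim over Clk, vri over Clk and per over cry, and are separate for vri over cry and cwo over cry.

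The division of counts among isoforms differed between libraries for most genes with several isoforms. Of the 38 clock transcripts, 26 had any counts and 9 had counts in all 4 libraries. Of the 6 genes with several listed transcripts, the isoform with the most counts was the same in all 4 libraries for 1 only, Clk, whose counts all fell to Clk-RH. Clk-RH starts at 7767230 on the reverse strand and has 5 exons and 2685 coding bases. Clk-RA, which starts at 7775603 and has 8 exons and 3069 coding bases, had 0 counts, as did Clk-RD and Clk-RF from the same start. The counts given for Clk are therefore those of the shorter Clk-RH. Salmon, the authors' counter, divides reads among overlapping transcripts by likelihood, and pairs of isoforms with counts share many of their bases. The smallest share of an isoform held by another was 98.1% for per, 88.5% for cwo, 72.6% for vri, 53.0% for tim and 42.0% for Pdp1.

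per had its counts in a single isoform in every library. All 36 counts of Inr-a duplication library A were given to per-RA, and all 17 counts of Inr-a duplication library B, like all 23 and 6 counts in wild type, to per-RB. The pair differs by an intron of 86 bases in the 3′ UTR (X chromosome from 2692391 to 2692476), which per-RA keeps and per-RB lacks. Splicing of an intron at this end of per is known to vary with temperature in adult heads. Since per-RA holds all bases of per-RB, only reads in or across those 86 bases can tell them apart.

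tim behaved alike, with 10 transcripts annotated and 8 listed in the table used here. Inr-a duplication library A gave 31 of 33 counts to tim-RM, and wild type library A gave all 10 to the same isoform. Inr-a duplication library B gave all 32 counts to tim-RT, and wild type library B gave all 12 to tim-RR. tim-RM keeps an intron of 237 bases (2L from 3499764 to 3500000) that tim-RT and tim-RR lack, and the leading isoform was the same in both A libraries across the genotypes.

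For vri, 3 isoforms led in 1 library or more, and vri-RA and vri-RC of these had counts in every library. vri-RA had 434 and 483 counts in the Inr-a duplication and 327 and 306 in wild type, and vri-RC had 311 and 319 against 333 and 232. vri-RD, all of whose bases lie within vri-RA, had 467 and 235 counts in the Inr-a duplication, and 0 and 219 in wild type. By coding length, the 3 isoforms of 2187 coding bases had 901 and 718 counts in the Inr-a duplication against 354 and 535 in wild type, a ratio of mean CPM of 1.45. The 2 isoforms of 1830 coding bases had 332 and 339 counts against 346 and 270, a ratio of 0.886. The isoforms with the shorter coding region thus did not share the higher mean of the gene, a description made after the values were seen.

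cwo-RA had 14 and 143 counts in the Inr-a duplication against 83 and 0 counts in wild type, and cwo-RB had 137 and 77 counts against 35 and 70 in wild type. The high library of the one was the low library of the other within both genotypes, and all bases of cwo-RB lie within cwo-RA. Pdp1 has 13 listed transcripts, 9 with counts. Its isoforms with coding regions of 696 to 852 bases held 29 and 98 counts in the Inr-a duplication and 23 and 18 in wild type. Those of 1710 to 1941 coding bases held 0 and 4 against 0 and 5 counts.

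**Figure D5:**
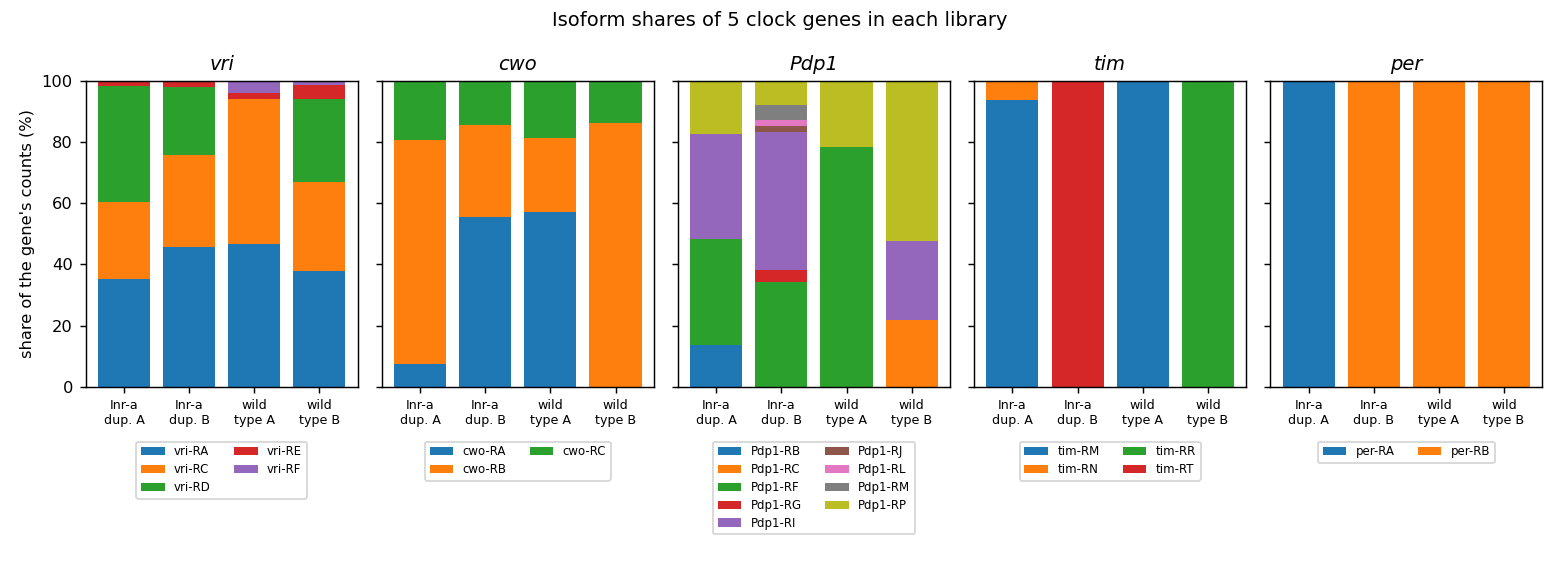
Share of each gene's counts given to each isoform (%, stacked to 100) for vri, cwo, Pdp1, tim and per, with the Inr-a duplication libraries to the left of the wild type libraries in each panel. per and tim give nearly all counts of a library to a single isoform, and the leading isoform differs between libraries of the same genotype for vri, cwo and tim in both genotypes. For Pdp1 it differs in wild type, while Pdp1-RF and Pdp1-RI were level at 10 counts in Inr-a duplication library A, and for per it differs in the Inr-a duplication.

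Of the clock transcripts, 14 passed the filter and were tested in limma over 20110 transcripts, and 0 were called, as were 0% of all transcripts. At an unadjusted p below 0.05 there was 1, vri-RF, with 0 and 0 counts in the Inr-a duplication and 27 and 10 in wild type. It had an adjusted p = 0.430 from limma, and 6.71% of all transcripts were higher and 4.63% lower at this unadjusted threshold. The exons of some clock genes overlap other genes, which the values here do not tell apart by strand. On the other strand, the last 49 bases of per overlap dyw, 9 bases of cry overlap vib, and 545 bases of tim a long non-coding RNA. On the same strand, 151 bases of tim overlap snoRNA:Or-CD16, and 329 bases of cry a long non-coding RNA.

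Regulators and partners of the clock, and neuropeptide and output genes, were counted by role, from lists of 9, 7, 7, 7 and 10 genes. In any of these lists 0 genes were called, beside 2.24% of all genes and a median of 0.021 over all genes. The values of these lists were not centred on transcript length. Over all genes tested, the median was -0.13 from 1000 to below 2000 bases and 0.40 from 4000 to below 7000 bases. Kinases and phosphatases of PER and TIM had a median log2 fold change of 0.54 over 9 genes. Of these, 4 had both values of the Inr-a duplication above those of wild type and 0 below, beside 27% and 26.7% of all genes. The summed level of the 9 was 597 and 972 CPM in the Inr-a duplication against 568 and 583 CPM in wild type, so that library B of the Inr-a duplication stood apart. The largest was that of tws, a regulatory subunit of protein phosphatase 2A, with 34.0 and 65.0 CPM in the Inr-a duplication against 32.0 and 24.9 CPM in wild type and a log2 fold change of 0.76 (adjusted p = 0.146 from limma), and nmo, a Nemo kinase gene, had 0.67. The gene dco of the kinase Doubletime was named after its values were seen, and it had 77.9 and 89.5 CPM in the Inr-a duplication against 84.1 and 89.0 CPM in wild type. For light input and degradation the median was -0.15 over 7 genes, of which 2 lay above and 2 below both wild type libraries, beside 27% and 26.7% of all genes. The largest shifts were those of slmb, which encodes an F-box protein for PER, at 0.35, and CSN4, a COP9 signalosome subunit, at -0.33. The gene jet, of the F-box protein for TIM, was named after its values were seen and had 9.98 and 9.66 CPM in the Inr-a duplication against 10.3 and 12.5 CPM in wild type.

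Regulators of translation and RNA had a median of 0.51 over 7 genes. Of these, 2 had both values of the Inr-a duplication above those of wild type and 0 below, beside 27% and 26.7% of all genes. The summed level of the 7 was 930 and 1495 CPM in the Inr-a duplication against 962 and 778 CPM in wild type, again highest in library B of the Inr-a duplication. The largest values were those of NAT1 at 0.60 and Atx2, which aids PER translation in clock neurons, at 0.58. Transcription partners had a median of 0.29 over 7 genes, 2 above and 1 below both wild type libraries, beside 27% and 26.7% of all genes. The value of kis, a chromatin remodeller, was 0.60. Among these Hr51, a nuclear receptor of clock neurons, was low, with 22 and 17 counts in the Inr-a duplication against 36 and 27 in wild type and a log2 fold change of -0.76 (adjusted p = 0.247 from limma). Of the neuropeptides and output genes, 9 of 10 were tested, with a median of 0.46. Of the 9, 6 lay above and 1 below both wild type libraries, beside 27% and 26.7% of all genes. Pdf, the neuropeptide of the lateral clock neurons, was named after its values were seen and had 40 and 42 counts in the Inr-a duplication against 50 and 36 in wild type, which is 2.59 and 2.98 CPM against 3.98 and 3.18 CPM, at a log2 fold change of -0.28 (adjusted p = 0.662 from limma). Slob, a channel-binding protein gene with a cycling mRNA, had 15 and 23 counts in the Inr-a duplication against 5 and 6 in wild type, at 0.90 (adjusted p = 0.227 from limma), and the neuropeptide gene sNPF had 0.63. The cycling output gene to had 1 and 3 counts in the Inr-a duplication and 1 and 1 in wild type and was not tested.

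The genes whose log2 values moved most like those of tim over the 4 libraries, by Euclidean distance after centring each gene on its mean, were Ugt302C1, CG2187 and GstD5, at distances of 0.094, 0.096 and 0.10. Ugt302C1 had 158 and 149 counts in the Inr-a duplication and 63 and 71 in wild type. Within the wider distance of 0.5 lay 622 of the genes tested (5.39%).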

How the data were processed

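The authors trimmed reads with Trimmomatic, quantified transcripts with Salmon 1.4.0 on BDGP6, and deposited, per genotype, CPM averaged over 2 libraries; the deposited ratio column was not used, and ratios given were computed here. Whole counts per library were recovered as the pair of counts that gives each mean at the fitted library totals. Exactly 1 pair was found for 99.7% of the Inr-a duplication and 99.4% of the wild type transcripts above 0, and 129 genes holding transcripts with several pairs, all abundant, were left out. The recovery and the fit were tested on simulated data. Transcripts were summed by symbol. Genes needed 10 counts at the median library size in 2 libraries and 15 in all. limma 3.58.1 (R 4.3.3; trend) was run on log2 values (pseudocount 0.5 CPM after TMM scaling), and p-values were adjusted over all genes tested (Benjamini-Hochberg). The libraries are described as biological replicates of pooled larvae. Whether they came from separate cultures is not given in the sources used here, so the p-values may not cover a spread between cultures. They set the difference between genotypes against the spread between these libraries, moderated by limma with that of other genes of like level. Positions and lengths are from Ensembl 115 (BDGP6.54). Genes named are the 8 members, Pcf11, up to 2 genes of each list with the largest log2 fold change in size and any called, and the 3 genes nearest to tim; exceptions are stated. Alternatives changed the scaling, pseudocount, low-count filter, length centring, tool and libraries. The members and lists were chosen with earlier results of these data known.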

Additional observations from a re-analysis of the deposited data

How the results depend on the processing

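Over 96 alternative values of the log2 fold changes of the 8 genes, 87 kept their direction and side of the threshold. The direction turned in 8: with a library left out, per ranged between -0.067 and 1.12 (negative without wild type library B), Clk between -0.47 and 0.63 (negative without library B of either genotype), and cyc between -0.45 and 0.054 (positive without Inr-a duplication library B or wild type library A), and after centring on transcript length Clk was at -0.28 and vri at -0.0071. With count-weighted lengths Clk was at -0.25. The causes were not tested. With each library left out in turn, between 0 and 1 clock genes were called higher, the 1 being Pdp1 without Inr-a duplication library A (log2 fold change 1.62). Over all genes, 200 were called higher and 58 lower. These counts were 59 and 17 with library size in place of TMM, 45 and 14 without the low-count filter, and 102 to 569 and 36 to 504 with a library left out. The difference in log2 ratio between genotypes lay between 0.29 and 2.07 for tim over Clk, between 0.29 and 2.04 for per over cry, and between -0.64 and 1.07 for vri over Clk with a library left out. The limma-voom fit and the count-weighted lengths were chosen after seeing the data. No paired analysis was possible because the recovered libraries carry no replicate numbers. Counting error was widest, relative to the level, for per, tim, Clk and Pdp1, with 6 to 102 counts per library. The spread between libraries went beyond it for Clk in both genotypes, Pdp1 in the Inr-a duplication and per in wild type. There the Poisson intervals of libraries of the same genotype did not overlap.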
